A study of Homo sapiens with 24 samples.

Results

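The genes described here are the ligands, receptors, secreted antagonists and some target genes of WNT signalling, measured by RNA-seq in sensory neuron cultures derived from human pluripotent stem cells (hPSCs). They were picked by gene symbol, though with earlier results of these data known. The list holds the *WNT*, *FZD* (frizzled), *SFRP* (secreted frizzled-related protein) and *DKK* (dickkopf) families, with *LRP5*, *LRP6*, *ROR1*, *ROR2*, *RYK*, *WIF1*, *AXIN2*, *LEF1*, *TCF7*, *NKD1* and *RNF43*. Each gene was taken as the first entry of its symbol, with a total of at least 10 counts over 24 libraries. All 48 matching symbols met that minimum, out of 36468 entries in the table, of which 29377 met it. The 48 genes comprised 19 ligands, 10 frizzled receptors, 5 other receptors, 9 antagonists and 5 targets or effectors.

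WNT proteins are secreted, lipid-modified ligands that bind frizzled receptors on the cell surface. Together with the coreceptors LRP5 and LRP6 they halt the breakdown of β-catenin, which then works with TCF7 and LEF1 to switch on target genes such as *AXIN2*, whereas through ROR1, ROR2 or RYK they act on cell polarity and axon growth without β-catenin. SFRP proteins and WIF1 bind the ligands and DKK1 binds the LRP coreceptors, so that each limits the signal, and in the embryo WNT signals from the dorsal neural tube help to specify the neural crest, from which many peripheral sensory neurons arise.

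Cultures were grown from the wild-type embryonic stem cell line H9WAO9, by way of vagal neural crest spheroids, and were matured before treatment. The differentiation itself opened with a chemical activator of WNT signalling and with inhibitors of SMAD signalling, which every group received, controls included. Each of 6 batches of differentiation gave 4 libraries, so that each group held n = 6. The groups were vehicle (PBS with 0.1% bovine serum albumin), TGF-β at 2 ng/ml, IL-4 at 10 ng/ml + IL-13 at 3 ng/ml, and IL-6, for which the labels name no dose. TGF-β and IL-4 + IL-13 were given for 5 days. The question was how TGF-β, and IL-4 given with IL-13, alter the plasticity of such neurons. All libraries came from 1 cell line and from whole cultures, in which a minority of cells were neurons by the study's flow cytometry, and in such bulk samples fewer cells of a type and less RNA per cell cannot be told apart.

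Between 33342682 and 39817784 reads were counted per library (median 35775126), and the 48 genes took between 0.135% and 0.291% of them. Of listed target genes of the treatments, 4 of 5 for IL-4 + IL-13 passed the test under that treatment, with *ALOX15*, a lipoxygenase, higher by 10.58 ± 0.43 (log2 fold change ± SE). Of 8 listed TGF-β targets, 0 passed with TGF-β against vehicle (8 positive, median 0.25) and 6 were higher against IL-4 + IL-13, while 3 fell with IL-4 + IL-13 against vehicle (8 negative, median −0.79). Of 6 listed IL-6 targets 0 passed under IL-6. The summed level of 8 neuronal marker genes ran from 1155 to 5419 CPM (read counts scaled to library size) over the libraries, and that of 7 mesenchymal markers from 2670 to 13441 CPM. *SOX10*, which defines neural crest glia, lay between 0.08 and 0.67 CPM. Libraries of a batch resembled each other more than libraries of different batches, except for 4 libraries that were closer to another batch, namely the vehicle library of batch 2 and all libraries of batch 4 except that with IL-6. Values without batches 2 and 4 are therefore given beside the main treatment results.

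The dickkopf genes *DKK2* and *DKK3* had the highest levels of the 48 genes per kilobase of exon. The length used was that of all annotated exons of a gene, merged over its transcripts (4335 bases for *DKK2* and 11958 for *DKK3*). The order depends on that length: by CPM alone, the vehicle median was higher for *DKK3* (307) than for *DKK2* (212). In vehicle libraries *DKK2*, a dickkopf protein with context-dependent effects on LRP coreceptors, had a median of 49.0 CPM per kilobase of exon, with a range from 39.6 to 123. *DKK3*, a divergent family member, had 25.7 and *SFRP1*, a ligand-binding antagonist, 21.1 CPM per kilobase, and the ranges of these latter 2 genes overlapped. *FZD6* (21.4), *WNT2B* (19.5), *AXIN2* (13.2) and *FZD1* (11.4) completed the 7 genes with at least 10 CPM per kilobase. Some of these overlap other genes, such as *USP47* for *DKK3* and *ST7L* for *WNT2B*. The strand setting of the counting is not stated, so reads cannot be told apart in such overlaps. A further 26 genes lay between 1 and 10, among them *WNT5A* at 7.18 (6.21 to 20.4), 9 between 0.1 and 1, and 6 under 0.1, all of the last being ligands (*WNT6*, *WNT8B*, *WNT9B*, *WNT16*, *WNT2* and *WNT8A*). *WNT2*, with 66 counts in all, was at 0 in 16 of 24 libraries, and *WNT8A*, with 53 counts, in 11.

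**Figure D1:**
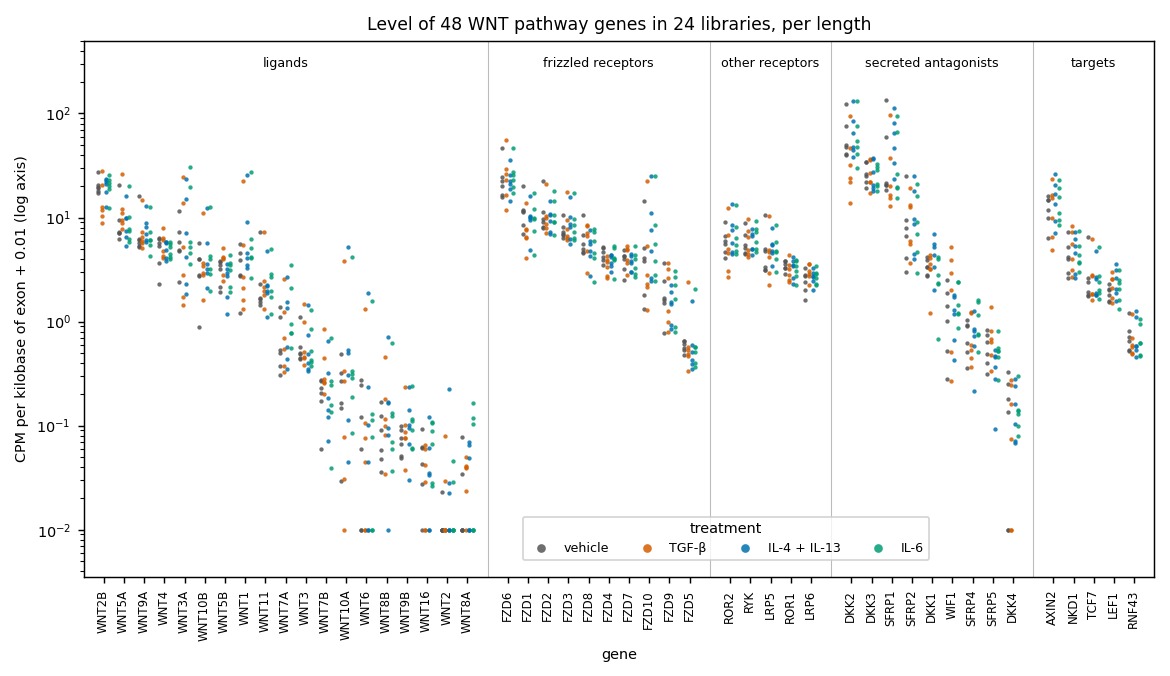
Level of each of the 48 genes in each of 24 libraries, as CPM per kilobase of GENCODE exon length plus 0.01 on a log axis, with genes grouped by role and coloured by treatment. *DKK2*, *DKK3*, *SFRP1*, *FZD6* and *WNT2B* are the highest, *WNT2* and *WNT8A* the lowest, and the 4 treatments overlap for nearly all genes.

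The genes that passed the test between 2 treatments did so between TGF-β and IL-4 + IL-13, at a share of 8.33% of the 48 beside 2.98% of all entries. In that direct comparison *WNT5A* and *WNT5B* were higher and *DKK2* and *SFRP1* lower with TGF-β, so that 4 of 48 genes passed at an adjusted p under 0.05 (edgeR's quasi-likelihood test with batch in the model, Benjamini-Hochberg over all 29377 entries), where 2.98% of all entries passed. By direction, 2 genes were higher where 1.08% of entries were, and 2 lower where 1.9% were. *SFRP1* alone also changed by more than 1 on the log2 scale, as 1.18% of entries did. The same 4 genes, and no others of the 48, passed the test for any difference among the 4 groups, which 1.81% of entries passed, and this count ran from 0 without batch 3 to 5 without batch 2 (1 without any of the other batches). Against vehicle, 0 of 48 passed under TGF-β (0.347% of entries did), 0 under IL-4 + IL-13 (0.633%) and 0 under IL-6 (0%). Beside such low shares, a count of 0 in 48 genes says little about these genes.

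At an unadjusted p under 0.05, 10 of 48 genes differed between TGF-β and vehicle (7.29% of entries), 5 between IL-4 + IL-13 and vehicle (9.1%), 2 between IL-6 and vehicle (4.77%) and 10 in the direct comparison (12.2%). DESeq2, run on the same model, called 4 genes under TGF-β (*WNT5A*, *DKK2*, *FZD1* and *FZD4*; 1.72% of entries), 2 under IL-4 + IL-13 (*SFRP1* and *LEF1*; 1.95%), 0 under IL-6 (0.449%) and 5 in the direct comparison (the 4 above and *SFRP5*; 5.35%). The median log2 fold change of the 48 genes against vehicle was 0.08 for IL-6, 0.04 for TGF-β and 0.07 for IL-4 + IL-13, beside −0.01 over all entries in each case. The 3 comparisons with vehicle share their 6 control libraries, and the direct comparison shares its treated libraries with 2 of them, so their values are set side by side and not counted as separate evidence.

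**Figure D2:**
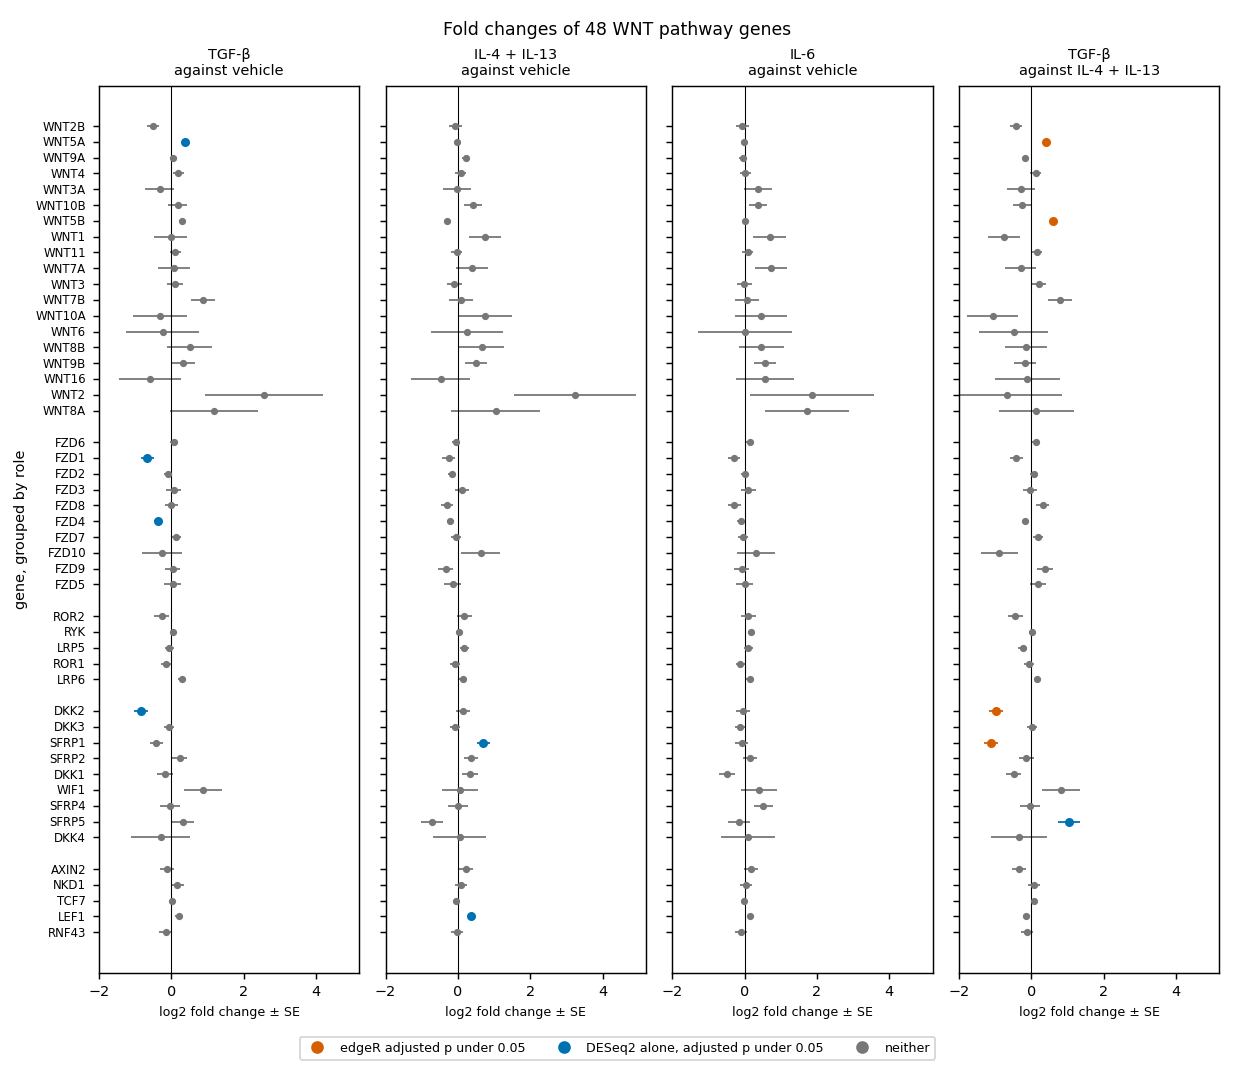
Log2 fold change ± SE of the 48 genes, grouped by role, in each of 4 comparisons (edgeR, 24 libraries, batch in the model). *WNT5A*, *WNT5B*, *DKK2* and *SFRP1* pass edgeR's test in the panel of TGF-β against IL-4 + IL-13, and the wide bars belong to ligands with few counts such as *WNT2* and *WNT8A*.

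Among the ligands, *WNT5A*, which acts mainly without β-catenin and guides axons in development, stood higher with TGF-β in each batch. Its level in vehicle libraries ran from 44.4 to 146 CPM with a median of 51.4, and with TGF-β from 55.6 to 186 with a median of 73.1. It ran from 38.1 to 114 CPM with a median of 61.9 with IL-4 + IL-13, and from 41.3 to 144 with a median of 54.2 with IL-6. The highest library of each group was that of batch 1, and the ranges of all groups overlapped. Within batches, TGF-β was above vehicle by 0.35, 0.32, 0.41, 0.75, 0.21 and 0.29 on the log2 scale in batches 1 to 6, and above IL-4 + IL-13 by 0.70, 0.54, 0.55, 0.28, 0.14 and 0.26.

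*WNT5A* rose by 0.41 ± 0.08 (log2 fold change ± SE, 1.33-fold) with TGF-β against IL-4 + IL-13 (adjusted p = 0.00856, edgeR). Against vehicle the difference was of like size, 0.39 ± 0.08 (1.31-fold), and lay just outside the threshold (adjusted p = 0.053, edgeR; 0.00431, DESeq2). Against vehicle it was −0.01 ± 0.08 for IL-6 and −0.02 ± 0.08 for IL-4 + IL-13, with adjusted p of 0.987 and 0.975 (edgeR) and 3 batches in each direction in both. The direct call was lost without batch 1 (adjusted p = 0.0629, edgeR) and without batch 3 (0.0736), and held without batches 2 and 4 together (0.0158). *WNT5A* (chr3:55465715-55490539, minus strand, GRCh38) overlaps *WNT5A-AS1*, and since the strand setting of the counting is not stated, reads of the 2 genes cannot be told apart in the overlap.

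*WNT5B*, the closest relative of *WNT5A*, gave the smallest p of the 48 genes in edgeR's direct comparison (in DESeq2 *SFRP1* did). It ran from 8.21 to 16.1 CPM with a median of 14.2 in vehicle, from 10.4 to 21.4 with a median of 17.1 in TGF-β, from 5.03 to 15.2 with a median of 12.0 in IL-4 + IL-13, and from 8.21 to 18.5 with a median of 14.2 in IL-6 libraries. The groups overlapped, since batches 1 and 6 were low throughout, but in every batch TGF-β was highest against vehicle and IL-4 + IL-13 was lowest of these 3. It rose by 0.60 ± 0.10 (1.52-fold) with TGF-β against IL-4 + IL-13 (adjusted p = 0.00146, edgeR), by between 0.20 in batch 2 and 1.22 in batch 1.

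Set against vehicle, *WNT5B* differed by 0.31 ± 0.10 with TGF-β (higher in 6 of 6 batches, adjusted p = 0.311, edgeR) and by −0.30 ± 0.10 with IL-4 + IL-13 (lower in 6 of 6, adjusted p = 0.303), and neither passed. The direct call kept its side of the threshold in every alternative that had batch in the model, without batches 2 and 4 included (0.65, adjusted p = 0.00679, edgeR). *WNT5B* (chr12:1529891-1647212, plus strand) overlaps *FBXL14*, with the same limit on strand.

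Since *WNT5A* and *WNT5B* were the ligands that passed, the stretches upstream of their RefSeq starts are shown. They cover the 250 bases before the start of each gene in RefSeq on GRCh38.p14, on the gene's strand (chr3:55487307-55487556, minus, and chr12:1616806-1617055, plus), and both starts lie inside the GENCODE span of the gene. Capitals mark the SMAD core AGAC or its reverse complement GTCT, SMAD proteins being the transcription factors that TGF-β receptors activate.

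WNT5A: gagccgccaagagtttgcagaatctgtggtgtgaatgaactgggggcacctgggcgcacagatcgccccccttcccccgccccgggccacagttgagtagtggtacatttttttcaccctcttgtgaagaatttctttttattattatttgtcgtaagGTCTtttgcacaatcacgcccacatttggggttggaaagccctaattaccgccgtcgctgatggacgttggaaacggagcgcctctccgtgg

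WNT5B: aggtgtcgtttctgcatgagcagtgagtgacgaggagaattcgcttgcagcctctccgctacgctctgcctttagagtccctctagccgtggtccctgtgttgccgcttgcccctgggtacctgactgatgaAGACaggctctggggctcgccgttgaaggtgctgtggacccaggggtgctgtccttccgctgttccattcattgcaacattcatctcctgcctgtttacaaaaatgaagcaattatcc

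Each of these windows held 1 SMAD core, 92 bases before the start of *WNT5A* on the reverse strand and 118 bases before that of *WNT5B* on the gene's strand. A match to AGAC on either strand was present in 77.6% of the 27305 promoter windows of this length and in 25 of the 33 members that had one in the RefSeq table. Neither window held the TCF/LEF core CTTTGA, present in 11.4% of all windows and in 1 of 33 members (*DKK1*), nor the STAT6 pattern of TTC and GAA with 4 bases between them, present in 5.35% of all windows and in 0 of 33 members, both searched on each strand. These are counts of letters and do not show that a factor binds there.

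The remaining 17 ligands did not pass in any comparison of treatments in the fit of 24 libraries. *WNT2B*, the highest ligand per length, had a median of 241 CPM in vehicle (212 to 342), 152 with TGF-β (111 to 348), 268 with IL-4 + IL-13 (156 to 292) and 257 with IL-6 (153 to 314), and the groups overlapped. Its log2 fold change was −0.50 with TGF-β against vehicle, lower in 4 of 6 batches (adjusted p = 0.385, edgeR). It was −0.43 against IL-4 + IL-13, lower in 5 of 6 batches (0.275), and *WNT2B* passed that direct comparison when batch 1 was left out.

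**Figure D3:**
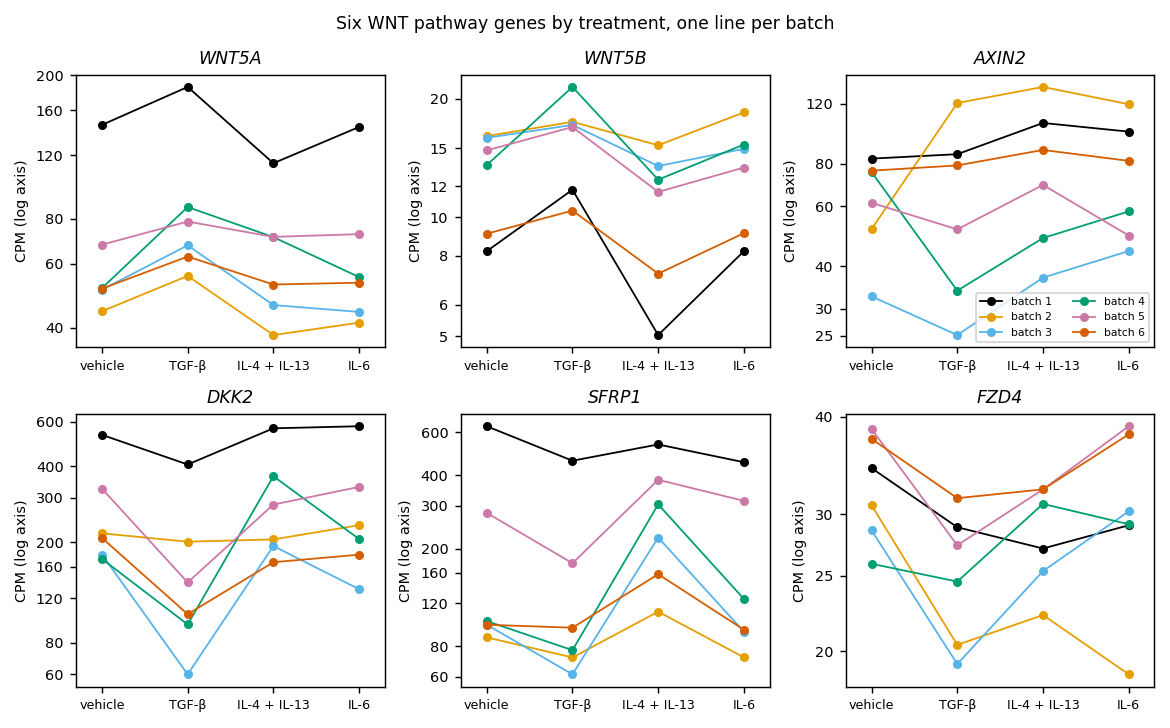
CPM on a log axis of *WNT5A*, *WNT5B*, *AXIN2*, *DKK2*, *SFRP1* and *FZD4* under the 4 treatments, with 1 line per batch. The *WNT5A* and *WNT5B* lines peak at TGF-β relative to vehicle and IL-4 + IL-13 in all 6 batches, the *DKK2* lines dip there against vehicle in all 6, and the *AXIN2* lines go in both directions.

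The frizzled receptors, to which WNT ligands bind, gave no call with edgeR between treatments in the fit of 24 libraries. *FZD4*, which also binds the ligand norrin, ran from 25.9 to 38.6 CPM with a median of 32.6 in vehicle and from 19.3 to 31.4 with a median of 26 in TGF-β libraries, and these ranges overlapped. It stood at −0.38 ± 0.10 (log2 fold change ± SE) with TGF-β, lower in 6 of 6 batches (adjusted p = 0.134, edgeR; 0.0312, DESeq2). Medians with IL-4 + IL-13 and IL-6 were 29 and 29.7 CPM. *FZD4* overlaps *PRSS23*, which limits the reading of its counts without strand.

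*FZD1*, the frizzled receptor with the second highest level per length, had a median of 78.8 CPM in vehicle (48.3 to 138) and 48.5 with TGF-β (27.8 to 94.8). Its value was −0.66 ± 0.18 with TGF-β against vehicle, lower in 5 of 6 batches, batch 4 being the exception (adjusted p = 0.152, edgeR; 0.0241, DESeq2). With IL-4 + IL-13 the median was 69.1 CPM (33.3 to 111), and TGF-β lay below IL-4 + IL-13 in 6 of 6 batches at −0.41 ± 0.18 (adjusted p = 0.323, edgeR), a difference that passed in a fit of only the 12 libraries compared (0.0253). Without batches 2 and 4 the value against vehicle was −0.59 (0.116). In batch 2 all 3 treated libraries (27.8 to 33.3 CPM) were below the vehicle library at 78.3 CPM by more than 1 log2 unit.

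Of the other receptors, none passed in any comparison of treatments in the fit of 24 libraries. *ROR2*, a receptor tyrosine kinase for *WNT5A*, had medians of 33.8 CPM in vehicle (23.8 to 53.3), 27.7 with TGF-β (15.6 to 72.7), 39.2 with IL-4 + IL-13 (26.3 to 79.0) and 34.6 with IL-6 (26.1 to 78.2), with the highest treated libraries all from batch 2. In the direct comparison it was lower with TGF-β in 6 of 6 batches, at −0.44 ± 0.20 (adjusted p = 0.39, edgeR), and passed once batch 2 was left out (−0.53, adjusted p = 0.0151), without batches 2 and 4 (−0.51, 0.0166) and in the fit of 12 libraries (−0.46, 0.0442).

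*RYK*, a catalytically inactive kinase-like receptor for WNTs, was higher with IL-6 than with vehicle in 6 of 6 batches, at 0.17 ± 0.08 (unadjusted p = 0.0338, adjusted p = 0.85, edgeR). Its medians were 43.1 CPM in vehicle (36.5 to 72.2) and 53.1 with IL-6 (38.1 to 76.2), and the groups overlapped. *LRP6* was present as 2 entries of the same symbol, with 24289 and 28784 counts, and their log2 fold changes with TGF-β against vehicle were 0.29 and −0.08, so that its direction depends on the entry. *WNT3* (3 entries, 0.10 to 0.21 in the same comparison) and *WNT9B* (2 entries, 0.29 and 0.34) were repeated as well and kept their direction there.

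Among the antagonists, *SFRP1*, which binds WNT ligands outside the cell, was the gene with the largest fold among the 4 that passed. Its level ran from 87.1 to 635 CPM with a median of 99.8 in vehicle, and from 61.5 to 459 with a median of 86.3 with TGF-β. It ran from 111 to 535 CPM with a median of 264 with IL-4 + IL-13, and from 72.1 to 452 with a median of 109 with IL-6. Batch 1 was highest in each group, and the groups overlapped.

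*SFRP1* fell by 1.12 ± 0.19 (log2 fold change ± SE, 2.17-fold) with TGF-β against IL-4 + IL-13 (adjusted p = 0.00203, edgeR), by between 0.22 in batch 1 and 1.98 in batch 4. Against vehicle, the value was −0.41 ± 0.19 with TGF-β, lower in 6 of 6 batches (adjusted p = 0.64, edgeR), and 0.71 ± 0.19 with IL-4 + IL-13, higher in 5 of 6 batches with batch 1 at −0.25 (adjusted p = 0.128, edgeR; 0.0158, DESeq2). In a fit of only the 12 libraries of the groups compared, the direct value was −1.08 and no longer passed (adjusted p = 0.0823), whereas it passed without batches 2 and 4 (0.0351).

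*DKK2*, the highest of the 48 genes per kilobase of merged exons though not by CPM alone, was lowest with TGF-β. It ran from 172 to 533 CPM with a median of 212 in vehicle, from 59.8 to 407 with a median of 121 with TGF-β, from 167 to 566 with a median of 244 with IL-4 + IL-13, and from 130 to 577 with a median of 220 with IL-6. Batch 1 again held the highest library of each group, and the groups overlapped. Within batches, TGF-β stood at −0.39, −0.11, −1.58, −0.86, −1.24 and −1.0 against vehicle, and at −0.48, −0.03, −1.69, −1.95, −1.03 and −0.68 against IL-4 + IL-13, so that batch 2 hardly moved in either.

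*DKK2* fell by 0.97 ± 0.20 (1.96-fold) with TGF-β against IL-4 + IL-13 (adjusted p = 0.00795, edgeR). Against vehicle it was −0.84 ± 0.20 with TGF-β (adjusted p = 0.082, edgeR; 0.00351, DESeq2), and it passed without batch 2 (−1.01, adjusted p = 0.0405) but not without batches 2 and 4 (−1.03, 0.0596). The direct call was lost without batch 3 (−0.83, adjusted p = 0.067) and in the fit of 12 libraries (−0.97, adjusted p = 0.126), and held without batches 2 and 4 (−0.95, 0.0114). With IL-4 + IL-13 and with IL-6 the values against vehicle were 0.14 and −0.04. *DKK2* lies at chr4:106921802-107283806 on the minus strand.

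*SFRP5*, a relative of *SFRP1* at far lower counts (6 to 88 per library), showed the opposite order. Its medians were 1.03 CPM in vehicle (0.57 to 1.53), 1.21 with TGF-β (0.61 to 2.58) and 0.75 with IL-4 + IL-13 (0.16 to 0.99). TGF-β was above IL-4 + IL-13 in 6 of 6 batches by 1.04 ± 0.31 (adjusted p = 0.087, edgeR; 0.0266, DESeq2), and IL-4 + IL-13 was below vehicle in 6 of 6 at −0.72 ± 0.31 (adjusted p = 0.49, edgeR). The other 6 antagonists, *SFRP2*, *SFRP4*, *DKK1*, *DKK3*, *DKK4* and *WIF1*, passed neither tool's test between treatments. Hence the antagonists did not move as 1 group: against vehicle, 3 of 9 had positive fold changes with TGF-β and 7 of 9 with IL-4 + IL-13.

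*AXIN2*, a direct target of β-catenin that in turn restrains it, passed in no comparison of treatments in the fit of 24 libraries. It ran from 32.7 to 82.9 CPM with a median of 68.6 in vehicle, from 25.1 to 121 with a median of 65.3 with TGF-β, from 37.1 to 135 with a median of 78.7 with IL-4 + IL-13, and from 44.4 to 120 with a median of 69.9 with IL-6. The groups overlapped throughout, batch 3 held the lowest library of each group, and batch 2 the highest of the 3 treated groups.

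The log2 fold change of *AXIN2* was −0.12 ± 0.20 with TGF-β (3 batches in each direction, adjusted p = 0.973), 0.22 ± 0.19 with IL-4 + IL-13 (higher in 5 of 6, 0.784) and 0.16 ± 0.19 with IL-6 (higher in 4 of 6, 0.895), all against vehicle with edgeR. Within batches, TGF-β against vehicle ranged from −1.16 in batch 4 to 1.23 in batch 2, and without these 2 batches the value was −0.13 (adjusted p = 0.886, edgeR). Against IL-4 + IL-13 the spread was narrower: TGF-β was lower in 6 of 6 batches, with ratios from −0.56 to −0.15, and the value was −0.33 ± 0.19 in the fit of 24 libraries (adjusted p = 0.556) and −0.35 in the fit of the 12 libraries concerned (adjusted p = 0.0283, edgeR). *AXIN2* lies at chr17:65528563-65561648 on the minus strand.

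*LEF1*, a DNA-binding partner of β-catenin, had medians of 10.2 CPM in vehicle (8.15 to 12.4) and 12.5 with IL-4 + IL-13 (8.46 to 19.3), with overlapping ranges. It stood at 0.35 ± 0.10 with IL-4 + IL-13 against vehicle, higher in 5 of 6 batches (adjusted p = 0.156, edgeR; 0.0201, DESeq2). The span of *LEF1* overlaps *LEF1-AS1*. *TCF7*, *NKD1*, an inducible inhibitor of dishevelled, and *RNF43*, a ligase that removes frizzled from the surface, passed in no comparison and had log2 fold changes between −0.15 and 0.17.

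In the direct comparison 11 of 48 genes differed in the same direction in all 6 batches, 5 higher with TGF-β (4.29% of entries) and 6 lower (5.64%), where 9.92% of entries did so. Besides the 4 genes that passed and *SFRP5*, *FZD1*, *ROR2* and *AXIN2*, they were *LRP6* and *FZD8* (higher) and *FZD10* (lower). Against vehicle the same count was 1 with IL-6 (2.32% of entries), 5 with TGF-β (4.22%) and 2 with IL-4 + IL-13 (4.15%).

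The batch of differentiation outweighed treatment for these genes. Between batches 41 of 48 genes passed (56.8% of entries; edgeR, adjusted p under 0.05). With edgeR's own expression filter, which drops entries of low count, 43 of 46 genes passed beside 73.9% of entries. The median range of batch means was 1.67 on the log2 scale for the 48 genes and 1.08 over all entries. Batch took a median of 67.4% of the variance of a gene's log2 CPM, and treatment 6.11%. Batch also has more terms in the model than treatment, and the shares were not computed over all entries. For *WNT5A* these shares were 87.3% and 8.61%, for *WNT5B* 73.4% and 19.2%, for *SFRP1* 78.7% and 14.4%, and for *DKK2* 63.8% and 23.8%.

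The genes did not share a batch pattern. Batch 1 held the highest mean log2 CPM of 16 genes, among them *WNT5A* (147 CPM against 44.8 to 72.6 in the other batches), *WNT11*, *TCF7*, *SFRP1* and *DKK2*, and the lowest of 12 others, among them *WNT5B* at 8.30 CPM. Batch 2 held the highest mean of 20 genes and batch 3 the lowest mean of 20. Neuronal marker levels were lowest in batch 1, at 1155 to 2005 CPM over its 4 libraries, and mesenchymal markers in 2 of its libraries were the highest of all (10555 CPM in vehicle and 13441 with TGF-β), and their part in the batch differences of WNT genes was not tested.

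Batch 2 stood out for a group of ligands and receptors that were high in its treated libraries and not in its vehicle library. In 15 of 48 genes all 3 treated libraries of batch 2 were more than 1 log2 unit above the vehicle library of the batch, where 5.89% of entries were, and in the other batches at most 2 of 48 genes were. They were the ligands *WNT1*, *WNT3*, *WNT3A*, *WNT6*, *WNT7A*, *WNT7B*, *WNT8B*, *WNT9B*, *WNT10A* and *WNT10B*, the receptors *FZD3*, *FZD5*, *FZD10* and *ROR2*, and *AXIN2*. *WNT1* and *WNT3A* are ligands of the roof plate of the dorsal neural tube, where *WNT10B* is also transcribed.

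*WNT1* had 6.75 CPM in vehicle of batch 2 and 54.3, 61.8 and 66.3 CPM with TGF-β, with IL-4 + IL-13 and with IL-6, while the other 20 libraries ran from 2.93 to 21.9. *WNT3A* had 14.5 CPM in that vehicle library and 73.2, 70.4 and 91.2 CPM in the treated ones. *FZD10* had 12.5 CPM and 73.0, 82.5 and 82.6 CPM, in the same order. In batch 4 the order of *FZD10* was turned round, with 47.5 CPM in vehicle and 6.98, 8.58 and 27.5 CPM in the treated libraries, in that order again. The summed level of 5 cycling-cell genes moved with these values, at 61.2 CPM in vehicle of batch 2 against 343, 474 and 411 CPM in its treated libraries, and at 130 CPM in vehicle of batch 4 against 54.5, 53.1 and 104 CPM. In batch 2 the sum of 3 pluripotency markers was 18.4 CPM in vehicle and 55.2, 51.0 and 53.8 CPM in the treated libraries in the same order. Most of that sum was *DPPA4* (up to 53.7 CPM over all libraries), while *LIN28A* reached at most 3.27 CPM and *NANOG* at most 0.14 CPM. The sum of mesenchymal markers in batch 2 was 8191 CPM against 4783, 3752 and 3686 CPM. Whether the mixture of cells had a part in the WNT values was not tested.

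**Figure D4:**
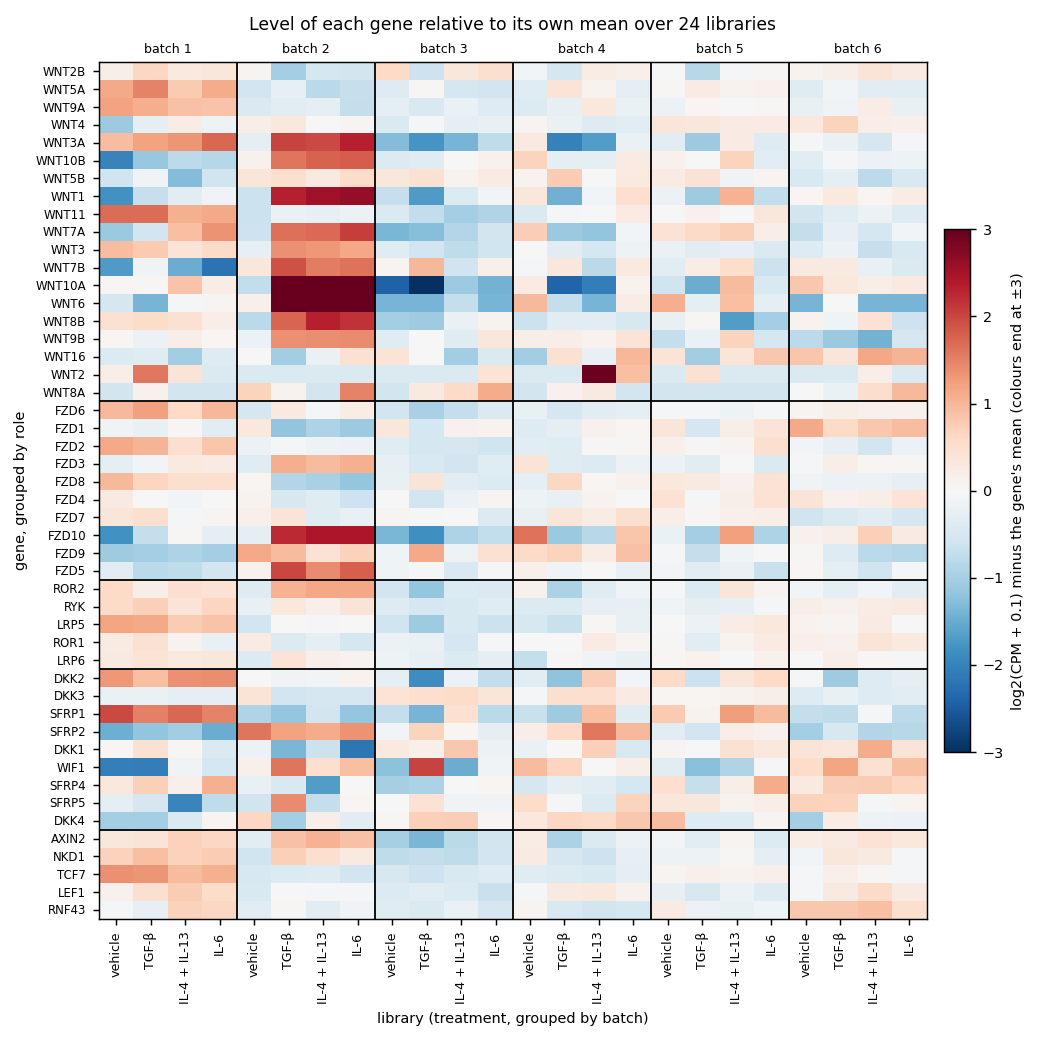
Log2(CPM + 0.1) of each of the 48 genes minus its own mean over the 24 libraries, in libraries grouped by batch, with colours ending at ±3. The treated libraries of batch 2 share high values of *WNT1*, *WNT3A*, *WNT6*, *WNT10A* and *FZD10* that its vehicle library lacks, and batch 1 is high for *WNT5A*, *WNT11*, *TCF7*, *SFRP1* and *DKK2*.

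Of 69 further genes of the pathway in 6 lists (ligand secretion and R-spondins, other secreted modulators, the β-catenin destruction complex with dishevelled, nuclear effectors, other β-catenin targets, and planar cell polarity), 1 rose and 1 fell with TGF-β against vehicle (2.9% of the 69 beside 0.347% of all entries), 3 rose and 1 fell with IL-4 + IL-13 (5.8% beside 0.633%), and 0 passed with IL-6 (0% of entries). In the direct comparison 7 were higher and 4 lower with TGF-β, 15.9% of the 69 beside 2.98% of all entries. The secreted modulators held 5 of these 11 among their 10 genes, the targets 3 of 11, planar cell polarity 2 of 12, the destruction complex 1 of 14, and the nuclear effectors and the secretion list 0 of 11 each. The lists were chosen with earlier results of these data known, so their shares are not independent of the data.

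Among the secreted modulators, *FRZB*, a further frizzled-related antagonist, fell by 0.91 ± 0.15 with TGF-β against vehicle (adjusted p = 0.0124, edgeR) and by 0.79 ± 0.15 against IL-4 + IL-13 (0.00455), in 6 of 6 batches both times. *SOST*, which encodes the LRP-binding antagonist sclerostin, fell by 0.70 ± 0.12 with IL-4 + IL-13 against vehicle (adjusted p = 0.00749, edgeR; 5 of 6 batches) and was higher with TGF-β in the direct comparison by 1.06 ± 0.12 (5.73e-05). *GPC3*, a glypican that can bind WNTs, rose by 1.08 ± 0.19 with IL-4 + IL-13 against vehicle (adjusted p = 0.00705, edgeR) and stood at −1.55 ± 0.19 with TGF-β against IL-4 + IL-13 (9.93e-05). With *SFRP1* and *DKK2*, antagonists thus went both ways between the cytokines.

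Among the targets, *SP5*, a transcription factor gene induced by β-catenin, rose by 1.76 ± 0.33 with IL-4 + IL-13 against vehicle in 6 of 6 batches (adjusted p = 0.0118, edgeR), at a mean level of 1.14 CPM. *TNFRSF19*, a receptor gene of the tumour necrosis factor family, rose by 0.51 ± 0.10 with TGF-β against vehicle in 6 of 6 batches (adjusted p = 0.0207). Of the planar polarity genes, *PTK7*, a kinase-like WNT coreceptor, and *DAAM2*, a formin that acts below dishevelled, were higher with TGF-β in the direct comparison, by 0.63 ± 0.12 and 0.67 ± 0.13 (adjusted p = 0.00383 and 0.00597, edgeR).

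Marker genes of other cells moved in the same comparisons. *MITF*, a melanocyte regulator, fell by 0.61 ± 0.12 with TGF-β against vehicle (adjusted p = 0.0352, edgeR) and by 0.75 ± 0.12 in the direct comparison (0.00129), 1 of 5 melanocyte markers each time. All 5 were negative with TGF-β against vehicle (median −0.61), and 4 were negative and 1 positive in the direct comparison (median −0.45). *COL1A1*, a collagen gene of mesenchyme, was higher with TGF-β in the direct comparison by 1.31 ± 0.26 (0.00675), 1 of 7 mesenchymal markers, of which 4 were positive and 3 negative (median 0.07). The sum of the 7, most of it *COL1A1* and *COL1A2*, ran from 3228 to 10555 CPM in vehicle and from 4173 to 13441 with TGF-β. It ran from 2670 to 6264 CPM with IL-4 + IL-13 and from 3496 to 8318 with IL-6. Against vehicle, 2 of the 7 were positive and 5 negative with TGF-β (median −0.07), and all 7 were negative with IL-4 + IL-13 (median −0.21). *CDH1*, 1 of 5 epithelial markers, fell with IL-4 + IL-13 against vehicle, by 1.89 on the log2 scale (0.00957), and was higher with TGF-β in the direct comparison by 1.27 ± 0.33 (0.0457). Of 8 neuronal, 5 cycling, 5 smooth muscle, 4 endothelial and 3 pluripotency markers, 0 passed in any comparison. Even so, all 5 cycling markers were positive against vehicle with TGF-β (median 0.55), IL-4 + IL-13 (1.00) and IL-6 (0.92). In the direct comparison all 5 were negative (−0.47). All 4 endothelial markers were negative with TGF-β against vehicle (−0.85) and against IL-4 + IL-13 (−0.73), at a summed level of at most 7.0 CPM. The part of these cell types in the differences of *WNT5A*, *WNT5B*, *DKK2* and *SFRP1* was not tested.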

How the data were processed

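RNA-seq of 24 libraries (4 treatments in each of 6 batches) was analysed from the deposited table of raw read counts per gene. The authors' provider trimmed adapters, aligned the reads and counted them per feature, and the submitters' processing notes list Trimmomatic 0.30 and the build GRCh38.p14. The aligner, the counter and the strand setting are not given in the sources used here. Counts were tested with edgeR 4.0.16 in R 4.3.3 (TMM, robust quasi-likelihood F test with terms for batch and for treatment, all 24 libraries, entries with a total of at least 10), with Benjamini-Hochberg adjustment over 29377 entries. The alternative test was the Wald test of DESeq2 1.42.0 with those terms, and the scripts were tested on simulated data. SE was taken as the log2 fold change divided by the square root of F. CPM used TMM-scaled totals, and ratios within batches a prior count of 1. Exon lengths and coordinates came from GENCODE v44 on GRCh38 and upstream sequences from RefSeq on GRCh38.p14, for 33 of 48 genes.

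Batches paired the libraries: deviations from group means correlated with a median r of 0.63 over 36 pairs of the same batch and −0.17 over 240 other pairs. Libraries are cultures of 1 cell line, and batch is in the model. The p-values of treatments therefore rest on the spread that remains over all 24 libraries after the terms for batch and treatment. All 4 groups enter that spread, also those not compared, and it covers batches of that line only. For *AXIN2* in the direct comparison, adjusted p was 0.556 in that fit and 0.0283 with only the 12 libraries compared (edgeR). Genes named were *WNT5A* and *AXIN2*, any member that passed edgeR or DESeq2, and any with an unadjusted p under 0.05 and the same direction in 6 of 6 batches, with at most 3 genes from each other pathway list by that rule. Chosen after their values were seen were *WNT2B*, *LRP6*, *FZD8*, *FZD10* and the genes of batch 2. The members and lists were chosen with earlier results of these data known. Alternatives changed the tool, the scaling, the filter, the libraries in the fit, the threshold, repeated symbols and the batch term. The glial marker list is not reported here.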

Additional observations from a re-analysis of the deposited data

Results flagged for a closer look

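In 2 of the 24 sets of 6 within-batch ratios examined, 1 batch lay far from the others by Dixon's test at the 95% level, which chance gives in about 1 of 20 sets. For *WNT5A* with TGF-β against vehicle, batch 4 stood at 0.75 on the log2 scale and the other 5 batches between 0.21 and 0.41, all of them positive. For *RYK* with IL-6 against vehicle, batch 2 stood at 0.61 and the other 5 batches between 0.04 and 0.16. Both vehicle libraries concerned, those of batches 2 and 4, were among the 4 libraries closer to another batch. Without batches 2 and 4 the fitted log2 fold change was 0.32 for *WNT5A* (adjusted p = 0.227, edgeR) and 0.08 for *RYK* (adjusted p = 1). Their part in either value was not tested further.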

How the results depend on the processing

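The model with batch as the replicate block gave 4 genes in the direct comparison of TGF-β with IL-4 + IL-13. Without the replicate block 0 of 48 passed there, and *AXIN2* with TGF-β against vehicle turned from −0.12 to 0.056. A log2 fold change beyond 1 left 1 gene in the direct comparison. DESeq2 called 4 genes with TGF-β and 2 with IL-4 + IL-13 against vehicle, and edgeR's own expression filter called 1 with TGF-β (*WNT5A*, 0.40, adjusted p = 0.0438), where edgeR with the total count minimum called 0. With 1 batch left out, the genes that passed numbered 2 (without batch 3) to 5 in the direct comparison, 0 to 1 with TGF-β against vehicle, 0 to 5 among the 4 groups, and 33 to 42 between batches. Over the same refits *AXIN2* with TGF-β against vehicle ran from −0.35 to 0.11, and *WNT5A* from −0.11 to 0.047 with IL-4 + IL-13 and from −0.032 to 0.031 with IL-6, each changing sign (*WNT5A* with IL-6 was 0.0035 without batch 2). Of 357 values of single genes under all alternatives, 327 kept their direction and side of the threshold, 14 passed only there, 9 lost their call and 7 changed sign, and the cause was not tested. Over all entries, DESeq2 called 132 with IL-6, 504 with TGF-β and 574 with IL-4 + IL-13 against vehicle and 1572 in the direct comparison, where edgeR called 0, 102, 186 and 874. With the libraries of the compared groups alone the counts in that order were 0, 0, 27 and 700, without the replicate block 0, 0, 13 and 51, and without batches 2 and 4 they were 0, 23, 205 and 1043, and a fit of 18 libraries with IL-6 left out gave 12, 93 and 524 for the last 3 comparisons. Depth limits the lowest ligands, such as *WNT2* and *WNT8A*, for which no fold is given.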
